A study of Drosophila melanogaster with 9 samples.

Results

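lz, PPO1 and PPO2 are genes of crystal cells, the blood cells of the fly larva that store prophenoloxidase. The genes were chosen with earlier results of these data known, so their ranks among all probe sets are descriptions. Their probe sets were taken by the annotation of the array: a probe set counted when it was annotated to one of these 3 genes under its current or a former symbol. Each gene had 1 probe set (lz 1633299_at, PPO1 1635494_at, PPO2 1633048_at), so 3 of 11982 named genes are described. Crystal cells are known to arise from blood cell progenitors under Notch signalling, which switches on lz. The gene lz encodes Lozenge, a transcription factor of the Runx family that is known to act with the GATA factor Serpent. PPO1 and PPO2 encode prophenoloxidases, the copper-containing proenzymes that crystal cells release at wounds, where the active enzyme oxidises phenols toward melanin, and both are known targets of Lozenge. In the larva, crystal cells circulate, mature in the lymph gland and sit among the sessile blood cells under the cuticle of the body wall.

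The study profiled cells sorted from dissociated body walls of Drosophila melanogaster larvae at the wandering stage of the third instar, with 80 body walls pooled per sample and animals reared at 25 °C. All 3 groups carried the driver GAL4[21-7], labelled as active in every class of dendritic arborization (da) sensory neurons, and the membrane marker UAS-mCD8:GFP, by which the cells were collected. Control carried nothing further, Ab ME also carried UAS-abL (the transcription factor Abrupt), and Kn ME also carried UAS-knL:HA (the transcription factor Knot, HA-tagged). Each group had 3 biological replicates on 1 array each, 9 arrays in all. Values are RMA log2 values, so 1 unit is a doubling of signal, and the median over all probe sets and arrays was 1.54. A value near that median may be background. Which other cells express GAL4[21-7] is not given in the labels.

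The labelled neuronal identity was checked against markers. Of 10 neuronal markers measured some gave signal above the median of all values on every array and others did not. The marker elav, an RNA-binding protein of neurons, ranged from 6.06 to 6.46 on the Control arrays, from 4.70 to 4.94 on the Ab ME arrays and from 5.01 to 5.69 on the Kn ME arrays. VAChT, the vesicular acetylcholine transporter, read 3.43 to 4.89 in Control but 0.86 to 1.68 in Ab ME and 1.255 to 1.96 with Knot, near that median. The calcium channel gene cac (0.93 to 1.98 in Ab ME) and the active zone gene brp (1.39 to 1.90 in Ab ME) were also near it. Signal of a plasmatocyte gene was also present on all 9 arrays. Hml (hemolectin, a clotting protein of plasmatocytes, the phagocytic blood cells) ranged from 7.70 to 9.46 on the Control arrays, from 11.29 to 11.70 on those of Ab ME and from 10.72 to 10.85 on those of Kn ME. The samples are bulk RNA. More crystal cells, more RNA of a gene per crystal cell and RNA of that gene in other sorted cells cannot be told apart. The gene ab is not analysed here. The brighter of 2 kn probe sets read 1.00, 3.75 and 3.53 on the Control arrays and 0.53 to 0.68 on the 6 others, so kn was not higher on the Kn ME arrays. Whether these probes match the introduced sequence was not examined, so kn checks no label. Of the calls against Control 62.4% were higher in Ab ME and 63.1% in Kn ME, shares that became 49.6% and 48.1% after quantile normalization and 76.2% and 72.4% after median centring, which moved the median difference by 0.17 and 0.11. Between Kn ME and Ab ME the share was 51.5%, and 62% after quantile normalization.

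The Lozenge gene was low on all Control arrays and high on all the others. The lz probe set read 2.275, 1.68 and 1.43 on Control replicates 1, 2 and 3. In Ab ME it read 6.43, 6.76 and 6.01, and in Kn ME 6.05, 5.52 and 5.15. Ab ME and Kn ME did not overlap with Control, and the lowest of their 6 arrays lay 2.87 log2 units above the highest Control array. Over all 18769 probe sets tested, 8.72% had all 6 of these arrays above all Control arrays, and by the size of that gap lz ranked 3.

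PPO1 split the Control arrays. It read 7.34, 1.53 and 3.22 on Control replicates 1, 2 and 3. On the Ab ME arrays it read 8.74, 8.998 and 9.21, and on the Kn ME arrays 8.77, 8.16 and 8.14. Control replicate 1 thus lay 1.02 log2 units below the Kn ME mean, whereas replicate 2 read at the median of all values. Every array of Ab ME and Kn ME was still above every Control array, by at least 1.405 in Ab ME and 0.81 in Kn ME.

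PPO2 split them the same way. Its values were 7.14, 1.81 and 1.72 on the Control arrays. The Ab ME arrays gave 8.69, 8.87 and 8.995, and the Kn ME arrays 8.23, 7.33 and 7.39. Control replicate 1 was again close to Kn ME, 0.51 log2 units below its mean. The lowest Ab ME array exceeded it by 1.545, while the lowest Kn ME array exceeded it by only 0.19.

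**Figure D1:**
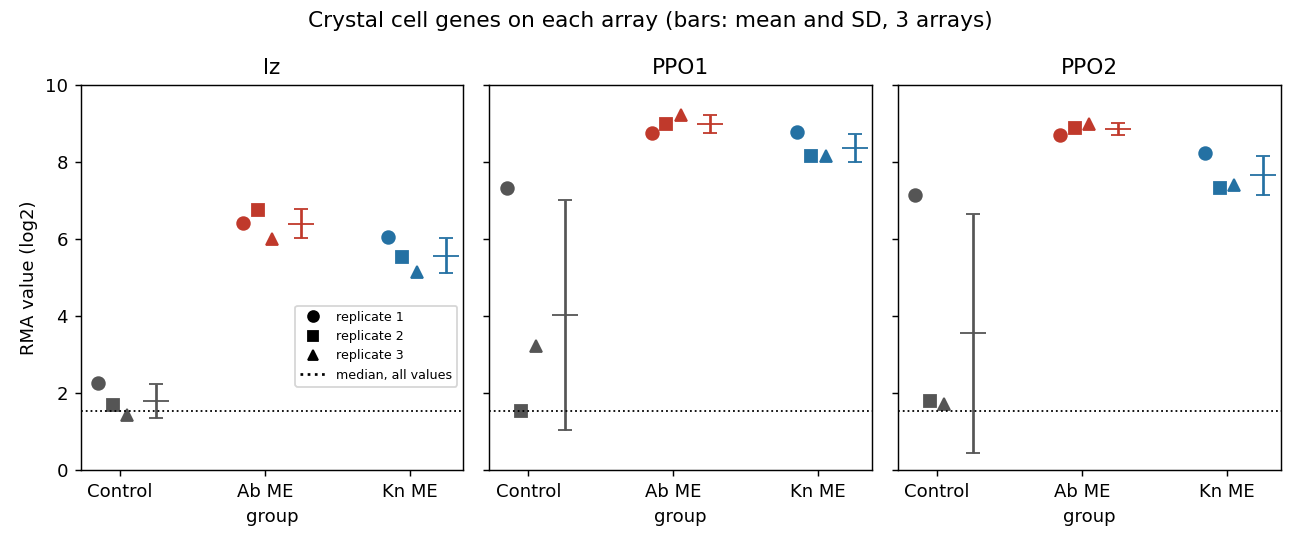
RMA log2 values of lz, PPO1 and PPO2 on each of the 9 arrays, by group; symbols mark replicates, bars give the mean and SD of 3 arrays, and the dotted line is the median of all values, 1.54. Control replicate 1 reads 7.34 for PPO1 and 7.14 for PPO2, near the Kn ME arrays, but 2.275 for lz.

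The spread among Control replicates was therefore unequal for the 3 genes. As mean ± SD of 3 arrays, Control was 1.80 ± 0.43 for lz, 4.03 ± 2.99 for PPO1 and 3.56 ± 3.11 for PPO2. Among all 18769 probe sets PPO2 had the largest and PPO1 the second largest SD over the Control arrays, where the median SD was 0.32 and lz ranked 6785. Control replicate 1 exceeded the mean of replicates 2 and 3 by 5.38 log2 units for PPO2 and by 4.96 for PPO1, which were ranks 1 and 2 of all probe sets, and by 0.72 for lz, rank 2115. In linear terms these gaps were 41.6-fold, 31.2-fold and 1.65-fold. The array was singled out after its values were seen, so these ranks describe it and carry no test.

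Within the other groups the SD of PPO1 was 0.24 in Ab ME and 0.36 in Kn ME, and that of PPO2 was 0.15 and 0.50. Over all probe sets the median SD was 0.18 in Ab ME and 0.21 in Kn ME, so lz and PPO1 exceeded it in both groups and PPO2 in Kn ME. For lz the SD was 0.38 in Ab ME and 0.45 in Kn ME, close to its 0.43 in Control. In Kn ME replicate 1 was the highest array for all 3 genes, by 0.72 (lz), 0.62 (PPO1) and 0.87 (PPO2) log2 units over the mean of the other arrays. In Ab ME the order differed between genes: replicate 2 was highest for lz, and replicate 3 for PPO1 and PPO2.

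**Figure D2:**
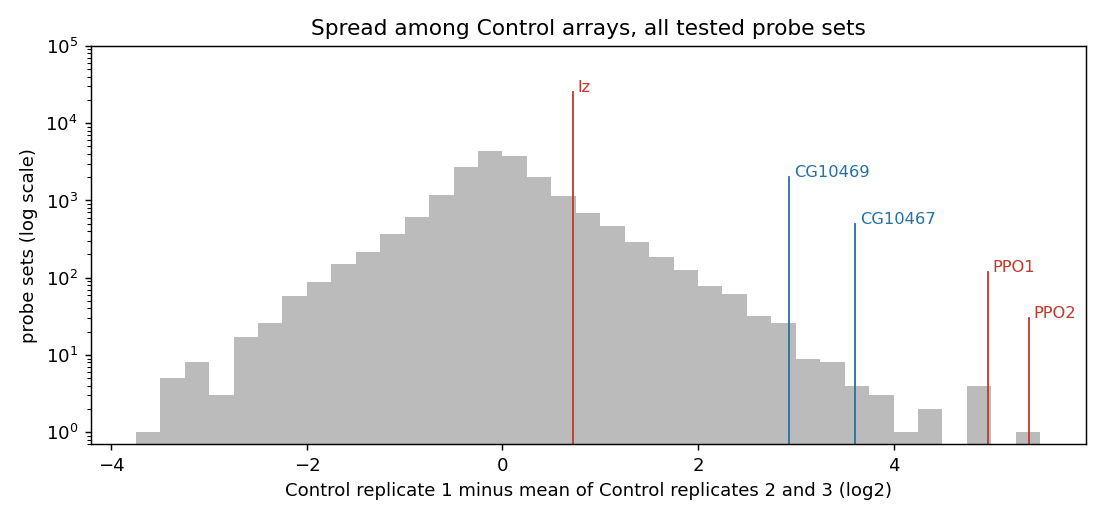
Histogram over 18769 probe sets (vertical axis: number of probe sets, log scale) of the value of Control replicate 1 minus the mean of Control replicates 2 and 3 (horizontal axis, log2). PPO2 at 5.38 and PPO1 at 4.96 are the largest differences, CG10467 at 3.61 and CG10469 at 2.94 also lie in the upper tail, and lz is at 0.72.

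All 3 genes rose in Ab ME. The lz signal was 24.3-fold higher than in Control (log2 difference 4.60, SE 0.31, limma adjusted p = 0.000157), from 1.80 ± 0.43 to 6.40 ± 0.38 (SD, n = 3). PPO1 reached 8.98 ± 0.24 and PPO2 8.85 ± 0.15 (SD, n = 3). Their log2 differences, 4.96 (SE 1.20, limma adjusted p = 0.0295) for PPO1 and 5.30 (SE 1.26, limma adjusted p = 0.0273) for PPO2, had wider errors than that of lz. The 95% interval of the fold ran from 14.8 to 39.7 for lz, from 4.61 to 209 for PPO1 and from 5.37 to 287 for PPO2. Of all probe sets 8.72% rose in this comparison and 17.2% had no overlap with higher Ab ME arrays. By size of the difference PPO2, PPO1 and lz ranked 3, 5 and 11 of 18769, and by p lz ranked 29, PPO2 1791 and PPO1 1909. The exact permutation test over arrays (2-sided) gave p = 0.1 for each gene, the smallest that 3 against 3 arrays allow.

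In Kn ME lz rose, and the prophenoloxidase genes were higher without passing the test. The lz signal was 13.7-fold higher (log2 difference 3.78, SE 0.31, limma adjusted p = 0.0013), with Kn ME at 5.57 ± 0.45 (SD, n = 3). PPO1 averaged 8.36 ± 0.36, a difference of 4.33 (SE 1.20, limma adjusted p = 0.082), and PPO2 7.65 ± 0.50, a difference of 4.095 (SE 1.26, limma adjusted p = 0.108; SD, n = 3). The 95% intervals of these log2 differences, 1.58 to 7.08 for PPO1 and 1.22 to 6.97 for PPO2, did not include 0. By size PPO1, PPO2 and lz ranked 2, 4 and 8 among all differences of this comparison, in which 3.34% of probe sets rose and 11.0% had no overlap with higher Kn ME arrays. Ab ME and Kn ME are compared with the same Control arrays, so their differences are not independent of each other.

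The PPO1 and PPO2 differences depended on Control replicate 1 in size and in their call in Kn ME, and the lz calls did not. Without it, the PPO1 difference became 6.61 in Ab ME (limma adjusted p = 0.000288) and 5.985 in Kn ME (limma adjusted p = 0.000959). That of PPO2 became 7.09 in Ab ME (limma adjusted p = 9.02e-05) and 5.89 in Kn ME (limma adjusted p = 0.000218), or 136-fold and 59.2-fold. For lz the differences became 4.84 and 4.02. In the other direction, the calls of both PPO genes in Ab ME were lost without Control replicate 2 (limma adjusted p = 0.0536 for PPO1, 0.0713 for PPO2), without Control replicate 3 (0.072 and 0.0646), or without any single Ab ME array (up to 0.0934 and 0.0855). The lz calls were kept in all 17 alternative analyses, 9 of which left out 1 array, with limma adjusted p up to 0.00155 in Ab ME and 0.0129 in Kn ME.

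**Figure D3:**
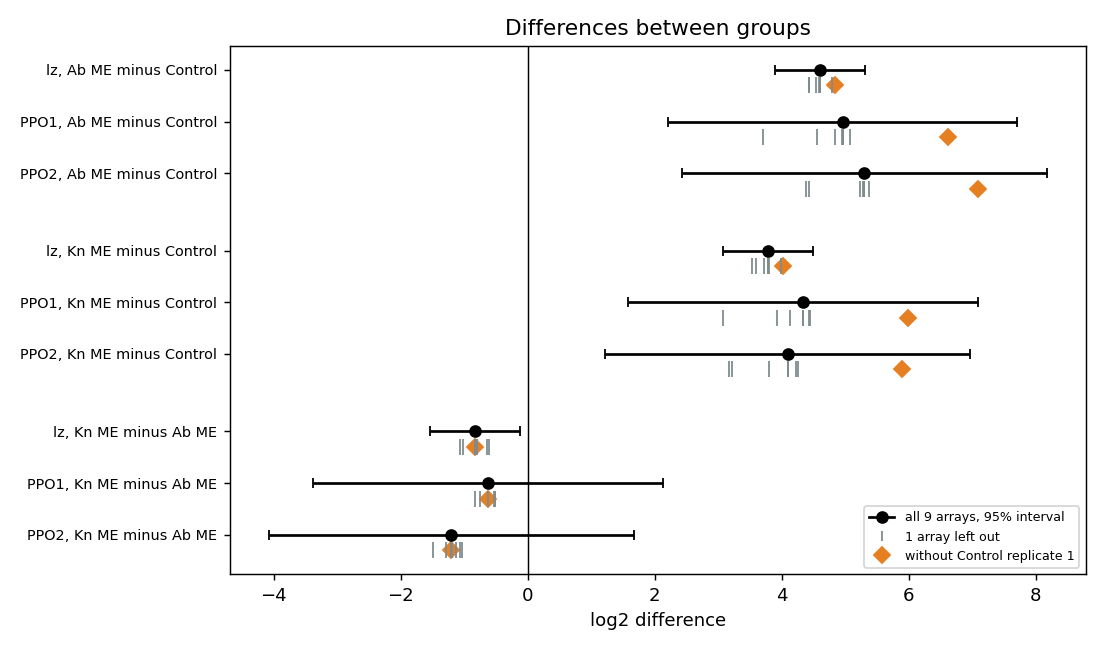
Log2 differences of lz, PPO1 and PPO2 (horizontal axis) in the 3 comparisons, with 95% intervals from all 9 arrays (black) and the value after leaving out each array in turn (ticks; diamond, without Control replicate 1). Without that array PPO1 moves from 4.96 to 6.61 and PPO2 from 5.30 to 7.09 in Ab ME, whereas lz moves from 4.60 to 4.84.

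Between the 2 factors, the 3 genes were lower in Kn ME than in Ab ME by less than the test could call. The log2 differences were -0.82 for lz (95% interval -1.54 to -0.11, limma adjusted p = 0.455), -0.62 for PPO1 (-3.38 to 2.13, adjusted p = 0.967) and -1.20 for PPO2 (-4.07 to 1.67, adjusted p = 0.909). PPO2 was the member whose arrays did not overlap: its lowest Ab ME array was 0.46 above its highest Kn ME array, a pattern shared by 9.85% of all probe sets. In this comparison 0.517% of probe sets passed in either direction. The wide intervals of PPO1 and PPO2 come from a spread that is shared with the Control arrays, and with only the 6 arrays of Ab ME and Kn ME the SE of PPO2 fell to 0.26 with limma adjusted p = 0.102.

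Among the 6 arrays of Ab ME and Kn ME the values of the 3 genes varied together, with Pearson r = 0.97 between PPO1 and PPO2, 0.77 between lz and PPO1 and 0.85 between lz and PPO2. These arrays share 2 groups, and the group difference enters each r, so the values are descriptions.

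The genes whose values over the 9 arrays were most like each member differed between lz and the PPO genes. The comparison used 1127 named genes with an SD of at least 1 over the arrays and Pearson r. For lz the closest were aru (r = 0.99), NimB5, a secreted protein of the Nimrod family (0.988), Pex2, a peroxisome assembly factor (0.987), spz, the ligand of the Toll receptor (0.985), and CG5397 (0.984). For PPO1 they were E2f2, a cell cycle transcription factor (0.996), GlcAT-P (0.984), CG5704 (0.981), Sbat (0.981) and CSN3, a COP9 signalosome subunit (0.98). For PPO2 they were CG10469 (0.991), E2f2 (0.985), CG5704 (0.98), CG30046 (0.975) and RhoGAP16F (0.973). E2f2 and CG5704 were thus close to both PPO genes. In Control replicate 1 the genes closest to lz exceeded the mean of the other Control arrays by 0.35 to 0.65 log2 units, and those closest to a PPO gene by 1.72 to 2.94. Since r was computed on these same arrays, that contrast restates the patterns of lz and the PPO genes and is no separate evidence.

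Of 20 further genes of crystal cells and partners of Lozenge that were measured, 5 rose and 1 fell in Ab ME (25% and 5%, against 8.72% and 5.25% of all probe sets), with a median difference of 0.25. In Kn ME 3 rose and 0 fell (15%, against 3.34%), with a median of 0.09. Over all probe sets the median difference was -0.06 in Ab ME and -0.03 in Kn ME. Without Control replicate 1 there were 6 rises in each group, and after quantile normalization 3 in Ab ME.

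CG10469, listed as a crystal cell gene, repeated the split of Control seen in the PPO genes. It read 3.90, 0.92 and 1.02 on the Control arrays, 4.91, 4.74 and 5.20 on those of Ab ME, and 4.27, 3.905 and 3.60 on those of Kn ME. It rose in Ab ME (3.00, SE 0.70, limma adjusted p = 0.0256) and did not pass in Kn ME (1.98, adjusted p = 0.158), where Control replicate 1 overlapped the group. CG10467, also listed as a crystal cell gene, read 7.15, 4.68 and 2.40 on the Control arrays, 6.08 to 7.87 on the other arrays, and passed in neither group (limma adjusted p = 0.0927 and 0.329). By the excess of Control replicate 1, CG10467 ranked 14 and CG10469 ranked 36 of 18769. Other genes listed for crystal cells showed no such split. CG17109 stayed between 0.66 and 2.23, CG7860 between 4.345 and 5.74, and peb, a zinc finger factor of crystal cell maturation, between 2.16 and 3.78. None of these passed in either group, and fok fell in Ab ME (-1.335, SE 0.18, limma adjusted p = 0.00273).

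Among transcription regulators on the same list, srp, pnr and zfh1 rose in both groups and ush in Ab ME. The GATA factor srp, which works with Lozenge on crystal cell genes, read 6.62, 6.13 and 5.46 on the Control arrays, 8.44, 8.495 and 8.87 on those of Ab ME, and 8.125, 8.15 and 8.11 on those of Kn ME. Neither group overlapped with Control, and srp rose by 2.53 in Ab ME (limma adjusted p = 0.000892, SE 0.27) and by 2.06 in Kn ME (adjusted p = 0.00626). The GATA factor pnr rose by 3.01 in Ab ME (limma adjusted p = 0.00552) and 2.48 in Kn ME (0.0263), and zfh1, a zinc finger homeodomain factor, by 1.82 (0.00423) and 1.40 (0.0265). The GATA cofactor ush, known to hold back crystal cell fate, rose in Ab ME (1.40, limma adjusted p = 0.0359) and did not pass in Kn ME (1.25, adjusted p = 0.0899).

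The Runx partner genes Bgb and Bro, the other Runx genes measured and Mlf did not pass in either group. Bgb and Bro, the genes of the beta subunits with which Runx proteins bind DNA, ranged from 1.31 to 1.96 and from 0.60 to 1.01 over the 9 arrays. RunxA and RunxB, the other Runx family genes named on the array, ranged from 1.22 to 2.59 and from 0.89 to 1.46. Mlf, a factor that protects Lozenge from degradation, ranged from 6.37 to 7.27 with differences of 0.22 and 0.32. RunxA differed by -0.52 in Ab ME and -0.79 in Kn ME (limma adjusted p = 0.115 and 0.0553). The corepressor gene gro, the Notch inhibitor numb, the zinc finger gene klu, and gcm and gcm2, factors of the plasmatocyte lineage, passed in neither group. Bro, RunxB, gcm and gcm2 read below the median of all values, 1.54, on every array, and Bgb read around it. Such values may be background, so a lack of change in these genes cannot be read. The gene run is not analysed here.

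**Figure D4:**
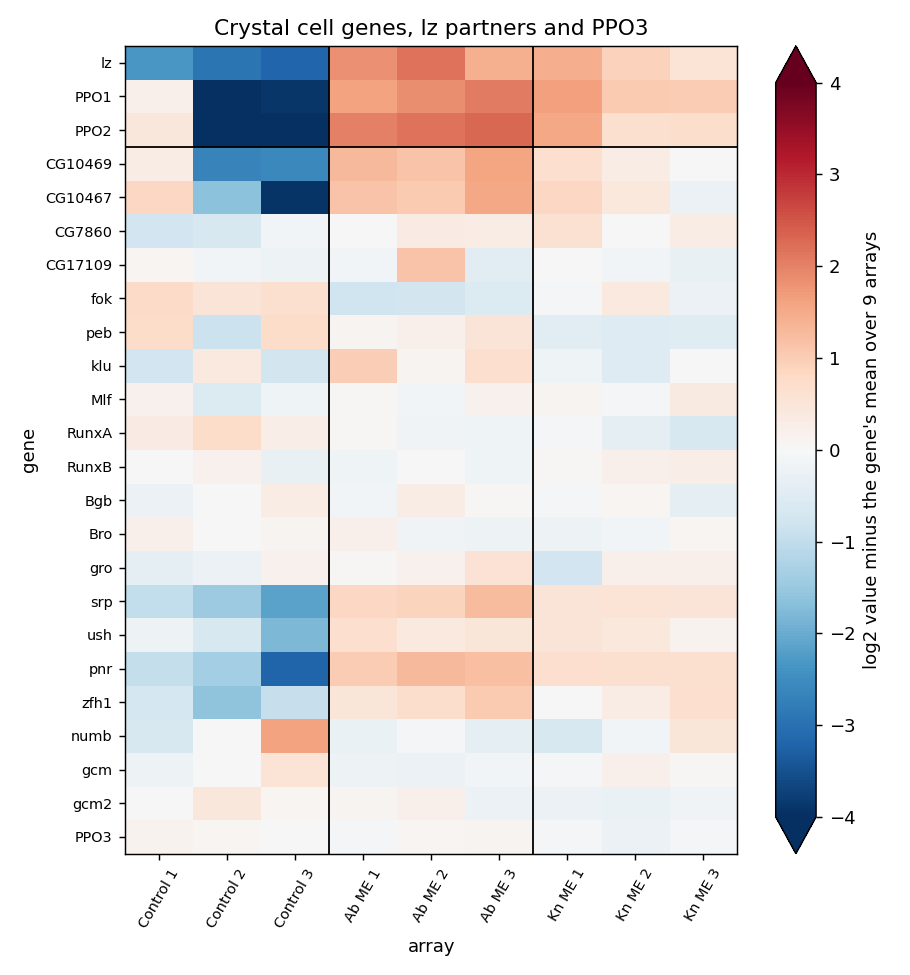
Log2 value minus the gene's own mean over 9 arrays (colour, saturating at 4 units either way) for lz, PPO1 and PPO2 (top rows), 20 further crystal cell genes and Lozenge partners, and PPO3, by array. PPO1, PPO2, CG10469 and CG10467 are low on Control replicates 2 and 3 and not on replicate 1, whereas lz is low on all 3 Control arrays.

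The remaining prophenoloxidase gene, PPO3, stayed low on all 9 arrays. Known from lamellocytes, the flat blood cells that form against parasitoid eggs, PPO3 read 1.81, 1.73 and 1.66 on the Control arrays, 1.62, 1.74 and 1.78 on those of Ab ME, and 1.59, 1.425 and 1.57 on those of Kn ME. Its differences, with an SE of 0.12, were -0.02 in Ab ME (limma adjusted p = 0.933) and -0.20 in Kn ME (adjusted p = 0.416), and its values lay close to the median of all values. Cross-hybridization among the 3 paralogs was not examined, because probe sequences were not used here.

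Other genes of melanization and clotting moved both ways. Of 20 measured on this list (PPO3 among them), 4 rose and 3 fell in Ab ME (20% and 15%, against 8.72% and 5.25% of all probe sets), and 4 rose and 2 fell in Kn ME (20% and 10%, against 3.34% and 1.95% of all probe sets), with medians of -0.18 and -0.16. Without Control replicate 1 there were 5 falls in Ab ME. The rises were Hml (2.87 in Ab ME, 2.14 in Kn ME), Tig, a clot protein of blood cells (1.945 and 1.79), Spn28Dc, a serpin that restrains phenoloxidase activity (2.77 and 2.07), and yellow-f, a dopachrome conversion enzyme of melanin synthesis (1.53 and 1.31). The falls were Ddc, dopa decarboxylase (-4.41 and -2.48), Pu, the enzyme of pteridine cofactor synthesis (-4.16 and -2.88), and in Ab ME Sp7, a protease of the melanization cascade (-1.51, limma adjusted p = 0.0343). Ddc and Pu also serve cuticle tanning in the epidermis, and Hml is also counted among the plasmatocyte markers below. Spn27A, the serpin that blocks prophenoloxidase activation, was higher without passing (1.35 and 1.03, limma adjusted p = 0.0685 and 0.222). The proteases Hayan, psh and SPE read under 2.4 on every array.

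Of 16 Notch pathway genes measured, 3 rose in Ab ME and 2 in Kn ME, and 0 fell (18.8% and 12.5% higher, against 8.72% and 3.34% of all probe sets). Without Control replicate 1, with quantile normalization or with dim probe sets left out, 1 rose in Kn ME. E(spl)mbeta-HLH, a repressor gene switched on by Notch, read 4.11, 3.77 and 3.62 on the Control arrays, 6.795, 7.02 and 6.80 on those of Ab ME, and 5.61, 5.61 and 5.59 on those of Kn ME. It rose by 3.04 in Ab ME (limma adjusted p = 5.54e-05, SE 0.16) and by 1.77 in Kn ME (adjusted p = 0.00191), and was lower in Kn ME than in Ab ME (-1.26, adjusted p = 0.0172). The metalloprotease gene kuz, whose product cleaves Notch, rose in both groups (1.02 and 0.73, limma adjusted p = 0.00408 and 0.0335), and the ubiquitin ligase gene neur in Ab ME (1.50, adjusted p = 0.00471). The other Enhancer of split genes measured passed in neither group. N, Ser and Su(H) are not analysed here.

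Plasmatocyte markers rose with the crystal cell genes, and their Control arrays were less far apart. Of 16 measured, 14 rose in Ab ME and 8 in Kn ME, and 0 fell (87.5% and 50% higher, against 8.72% and 3.34% of all probe sets), with median differences of 1.82 and 1.45, and without Control replicate 1 the rises in Kn ME numbered 13. The smallest p-values belonged to NimB5 (3.59 in Ab ME, 2.78 in Kn ME), Ppn, papilin of the extracellular matrix (3.51 and 2.55), the scavenger receptor Sr-CI (3.015 and 2.18), and vkg, a type IV collagen (1.76 and 1.44). NimB5 was also among the genes most like lz. Pxn did not pass in Kn ME by its brightest probe set, whereas its other, dimmer probe set rose there (0.80, limma adjusted p = 0.0246). The mean over the list was 7.82, 7.39 and 6.75 on Control replicates 1, 2 and 3, 9.17 to 9.40 over the Ab ME arrays and 8.81 to 8.84 over the Kn ME arrays. Control replicate 1 was the highest Control array for 13 of the 16 (81.3%, against 31.1% of all probe sets), with excesses of 0.02 to 1.34 over the mean of the other Control arrays and a median of 0.67. The PPO1 and PPO2 excesses of 4.96 and 5.38 were each larger than that of any plasmatocyte marker, while that of lz, 0.72, lay inside their range. Whether the amount of blood cell RNA on each array accounts for part of the lz, PPO1 and PPO2 differences was not tested.

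Few genes of the lamellocyte and lymph gland lists passed. Of 11 lamellocyte genes 1 rose (Itgbn, 1.325) and 1 fell (Drip, -1.91) in Ab ME, and only Drip fell in Kn ME (-1.615). The share higher in Ab ME, 9.09%, was near the 8.72% of all probe sets, and as many fell, against 5.25% (1.95% in Kn ME). Of 6 lymph gland progenitor genes Tep4 rose (1.31) and Antp fell (-2.75) in Ab ME, and 0 passed in Kn ME by limma. Each is 16.7% of the list, against 8.72% higher and 5.25% lower over all probe sets in Ab ME (3.34% and 1.95% in Kn ME). The mean over the lymph gland list was 3.85 to 4.17 in Control, 3.24 to 3.40 with Abrupt and 3.46 to 3.73 with Knot. All 6 arrays with Abrupt or Knot thus lay below every Control array. The list holds kn, which read 1.00, 3.75 and 3.53 on the Control arrays and 0.53 to 0.68 on the 6 others. The kn differences of -2.15 and -2.16 did not pass (limma adjusted p = 0.0534 and 0.0897). Without kn the list means of Kn ME overlap those of Control, and those of Ab ME stay below. The other Antp probe sets did not pass in Ab ME (-0.90 and -0.31). Without Control replicate 1, 0 lamellocyte genes rose and 2 fell in Ab ME. Of the lymph gland list, 2 genes then fell in Ab ME and 1 in Kn ME by limma.

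Markers of the remaining tissues fell or did not pass. Of 10 neuronal genes 6 fell in Ab ME and 4 in Kn ME and 0 rose (60% and 40% lower, against 5.25% and 1.95% of all probe sets). The synaptic genes nSyb (-3.01 and -2.10), cpx (-2.61 and -1.71) and VAChT (-2.84 and -2.54) fell in both groups. The other cpx probe set fell in Ab ME (-2.325) and did not pass in Kn ME (-1.10, limma adjusted p = 0.361). In Ab ME elav fell by 1.45 (limma adjusted p = 0.00297), and in Kn ME its difference of -0.85 did not pass (adjusted p = 0.0502). The mean over the neuronal list was 4.78 to 4.98 over the Control arrays, 2.93 to 3.24 over those of Ab ME and 3.29 to 3.53 over those of Kn ME. Of 7 muscle genes 5 fell in Ab ME (71.4%, against 5.25% of all probe sets) and 0 passed in Kn ME (against 1.95% lower), with list means of 5.36 to 6.495, 3.63 to 4.06 and 5.48 to 6.01 in Control, Ab ME and Kn ME. The muscle genes with the smallest p in Ab ME were Mf (-3.72), up (-3.41), Tm2 (-3.37) and sls (-2.31). The other sls probe sets did not pass in Ab ME (-2.31 and -0.545). Control replicate 1 was the highest Control array for 0 genes of this list, 0 of the epidermis and fat body list and 1 of the 10 neuronal genes. Over all probe sets that share was 31.1%. Of 7 epidermis and fat body genes 4 fell in Ab ME and 2 in Kn ME (57.1% and 28.6%, against 5.25% and 1.95% of all probe sets). These were Ddc and the cuticle gene Cpr65Aw (-5.13 and -2.93) in both, and Fbp1 (-2.36) and grh (-2.79) in Ab ME. The mean over this list, which includes Ddc, was 4.49 to 5.36 on the Control arrays, 2.33 to 2.74 on those of Ab ME and 3.45 to 3.91 on those of Kn ME. The part of these lists in the crystal cell results was not tested.

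**Figure D5:**
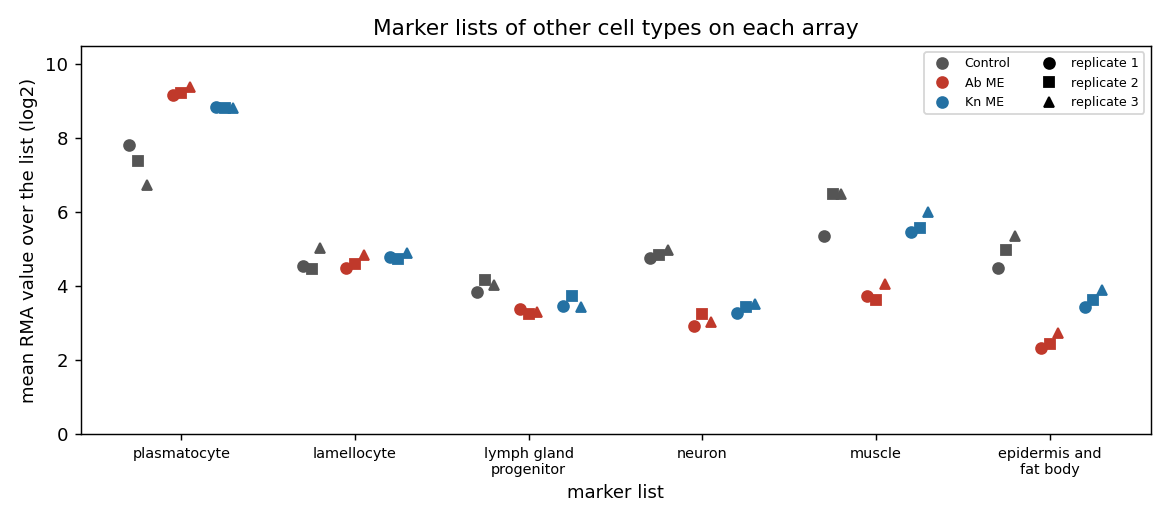
Mean RMA log2 value over each marker list (vertical axis) on each of the 9 arrays, by list and group (colour) and replicate (symbol). The plasmatocyte list is lowest in Control (6.75 to 7.82), whereas the neuronal list is highest there (4.78 to 4.98).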

How the data were processed

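The deposited table held 18952 probe sets on 9 arrays. According to the submitters' processing notes the authors used RMA, which corrects background, normalizes and summarises probes. The deposited values are taken as log2 from their range, since the log base and version are not given in the sources used here. Folds that start from low Control values are uncertain, since such signal may be background. Detection calls and batches were not examined, and 3 arrays per group limit the precision. Replicates are labelled biological, and no pair of arrays was identical.

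After 183 control probe sets were left out, limma 3.58.1 (R 4.3.3) was fitted to 18769 probe sets over all 9 arrays with a term per group (6 residual and 2.44 prior degrees of freedom). Tests were 2-sided and moderated, with Benjamini-Hochberg adjustment over all probe sets and a threshold of 0.05. The procedure was tested on simulated data with the same spread in every group. That test does not cover the unequal spread of PPO1 and PPO2 between groups. The 13647 probe sets with 1 symbol were named, 13544 of them updated by gene ID through a RefSeq gene table, and the brightest stood for its gene.

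Members and the 9 gene lists were chosen with earlier results of these data known. Named genes were the members, the 5 genes most alike to each, up to 4 genes past the threshold with the smallest p on each list, and always PPO3, run, RunxA, RunxB, srp, ush, N, Ser, Hml, elav and Mhc (Mhc is not analysed here). Other genes named were chosen after their values were seen. Alternatives were quantile normalization, median centring, a filter on dim probe sets, other priors and weights, fewer arrays and a replicate block.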

Additional observations from a re-analysis of the deposited data

How the results depend on the processing

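Over 17 alternatives, 9 of which left out 1 array, the 3 comparisons of lz kept direction and side of the threshold, and all member differences kept their direction. Of the member values over these alternatives, 136 kept their side, 5 gained the call and 12 lost it. With only the 6 arrays compared, PPO1 (4.955, limma adjusted p = 0.082) and PPO2 (5.30, adjusted p = 0.0759) lost their call in Ab ME, and 1726, 337 and 241 probe sets passed in Ab ME, Kn ME and Kn ME against Ab ME. All 9 arrays gave 2622, 992 and 97. With dim probe sets left out, which tests fewer probe sets, PPO1 (4.33, limma adjusted p = 0.0354) and PPO2 (4.095, adjusted p = 0.049956) passed in Kn ME, and 149 probe sets passed between the factors. A trended robust prior also gave PPO1 the call in Kn ME (4.33, limma adjusted p = 0.041). Array weights gave 589 probe sets in Kn ME and 326 between the factors, and group-specific weights gave 605 and 327. The cause of these shifts was not tested.

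Over the 9 fits that left out 1 array, the differences in Ab ME ranged from 3.71 to 6.61 for PPO1 and from 4.38 to 7.09 for PPO2. In Kn ME they ranged from 3.08 to 5.985 and from 3.18 to 5.89. The counts ranged from 1400 to 3249 in Ab ME, 347 to 1609 in Kn ME and 26 to 139 between the factors; the highest of each was without Control replicate 1. After quantile normalization 3 genes on the list of crystal cell genes and Lozenge partners rose in Ab ME and 1 fell in Kn ME. With that normalization 1 Notch gene rose in Kn ME (also with dim probe sets left out). In Ab ME 0 genes of the lamellocyte list and 0 of the lymph gland list then rose by limma. Leaving out Control replicate 1 was an alternative for the lists chosen after seeing the data. Without that array 6 crystal cell genes or Lozenge partners, 13 plasmatocyte and 1 Notch genes rose in Kn ME. In Ab ME 5 melanization genes, 2 lamellocyte genes and 2 genes of the lymph gland list fell, and 0 lamellocyte genes rose. In Kn ME 1 gene of the lymph gland list fell.

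The labels link same-numbered arrays by their number only. Deviations of such arrays correlated at 0.03 to 0.27, all positive, and 6 of 9 arrays correlated best with their own number. What same-numbered arrays share was not tested. A replicate block changed no member's call (limma adjusted p in Ab ME 0.000304 for lz, 0.029 for PPO1 and 0.0241 for PPO2, with differences of 4.60, 4.955 and 5.30; in Kn ME 0.00169, 0.0733 and 0.0876), and gave 2778, 1078 and 119 probe sets. The mean of all probe sets of a gene was not run, since each member has 1. Values near the median of all values limit how low the Control level of the members can be read.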
